A study of Mus musculus with 12 samples.

Results

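Glutathione transferases and antioxidant enzymes were followed at the RNA level while C2C12 cells, an immortalised line of mouse myoblasts, left proliferation and formed myotubes. The set was chosen by gene symbol, with earlier results of these data already known. It took in the alpha, kappa, mu, omega, pi, theta and zeta glutathione transferases, the quinone reductase Nqo1 and the heme oxygenase Hmox1, the enzymes that make and recycle glutathione, the glutathione peroxidases, the thioredoxin system, the peroxiredoxins, the superoxide dismutases and catalase. It held 55 of the 22522 mRNA probes on the array and 47 of 19053 named genes.

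RNA was measured on 12 one-colour arrays, 3 for each of 4 stages. Proliferating cultures were in DMEM with 10% fetal bovine serum and reached 80 to 90% confluence. The other cultures were then moved to DMEM with 2% horse serum and taken 2, 5 or 8 days later. The labels record no drug and no genetic change in any group. The later stages differ from proliferation in serum, time and cell density at once, and these cannot be told apart. The labels speak of 3 independent experiments a stage but not whether the cultures were separate; p-values therefore reflect only how far these arrays vary. Correlations across probes were 0.985 to 0.994 between arrays of a stage and 0.929 to 0.985 between arrays of different stages. From 56.9% to 69.5% of spots on an array were well above background, and none was saturated. The 12 arrays lay on 3 slides. Slide 1 held all the proliferation arrays and day 2 replicate 1, slide 2 held day 2 replicates 2 and 3 with day 5 replicates 1 and 2, and slide 3 held the rest. Day 5 and day 8 therefore share no slide with proliferation.

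Defining markers fitted the labelled cell type. All 8 muscle markers examined, among them Myog, Ckm and Myh3, were called higher at day 5, and their summed signal was 75700 to 102000 on the proliferation arrays and 560000 to 617000 at day 5. At day 2, 6 of them were higher and 1 lower, and at day 8, 6 were higher and none lower. All 5 proliferation markers were lower at day 5 and day 8. Of markers of other cell types, the macrophage gene Adgre1 and the adipocyte genes Adipoq and Plin1 were above background on no array. Other listed genes were detected. Of 3 tested macrophage genes 2 were higher and 1 lower at day 5 and at day 8, and the 1 tested adipocyte gene was higher at day 5 (0.94). Of 4 endothelial genes, 3 were above background on all proliferation arrays, 4 on all day 2 arrays and 1 on all arrays of days 5 and 8. The summed signal of the 5 macrophage genes on the array was 88.6 to 178 at proliferation, 115 to 146 at day 2, 132 to 150 at day 5 and 173 to 229 at day 8. That of 4 adipocyte genes was 486 to 1160, 270 to 338, 1300 to 1860 and 792 to 1540 in the same order, and that of 4 endothelial genes was 213 to 294, 783 to 1070, 678 to 874 and 480 to 619. Their part in the results was not tested.

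Glutathione transferases join the thiol of glutathione to electrophilic compounds, which can then be exported from the cell. Glutathione itself is made by glutamate-cysteine ligase and glutathione synthetase and is kept reduced by glutathione reductase at the expense of NADPH. Peroxidases and peroxiredoxins remove peroxides with electrons drawn from glutathione or thioredoxin, and superoxide dismutases feed them hydrogen peroxide. Many of these genes, the alpha transferases, Nqo1, Hmox1, Gclc, Gclm, Srxn1 and Txnrd1 among them, are textbook targets of Nrf2, a transcription factor that binds the antioxidant response element and is held down by Keap1. Contracting muscle is a known producer of reactive oxygen species.

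Signals are given on a scale on which the 75th percentile of each array is 1000, and levels of different probes are not compared with each other. Of the 47 genes, 41 were tested with limma, which required a probe that all 3 arrays of some stage read well above background. A gene was called when its p-value, adjusted over all 22960 probes tested, was under 0.05. The 6 untested genes were Gpx2, Gpx7, Gsta3, Gstm3, Gstt4 and Txn1. Fold changes are on the log2 scale with standard errors and n = 3 arrays a stage, and every later stage was set against the same 3 proliferation arrays. In cultured cells as in tissue, fewer cells of a kind and less RNA per cell cannot be told apart.

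At day 2, 10 of the 41 genes were higher and 7 lower than in proliferation, against 20.5% and 12.2% of the 13635 mRNA genes tested (32.6% in either direction). At day 5, 5 were higher and 16 lower, where 24.4% and 25.4% of all genes were called (49.8% in all). At day 8 the counts were 5 higher and 15 lower, against 25.8% and 30.8% (56.6% in all). The median log2 fold change of the members was 0.16 at day 2, -0.06 at day 5 and -0.38 at day 8, and that of all genes was 0.10, -0.02 and -0.11. Across the 4 stages 28 members changed in the F test, a share of 68.3% that lay beside 68.0% of all genes. Of the 28, 13 had their highest mean at proliferation (46.4%), 12 at day 2 (42.9%), 1 at day 5 and 2 at day 8. Among the 9277 genes of the array that changed, 33.0% were highest at proliferation, 26.1% at day 2, 16.2% at day 5 and 24.8% at day 8. The member counts include Gstm6 and Sod3, which entered the test only through the stage where each was highest, day 2 and day 8 respectively. Gstm6 is among the members higher at day 2, and Sod3 among those higher at day 2, day 5 and day 8.

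With the slide as a block in the fit, 6 members were higher and 3 lower at day 2, 2 higher and 11 lower at day 5, and 1 higher and 8 lower at day 8. That fit reaches days 5 and 8 only through the day 2 and day 5 arrays, with larger standard errors. Some calls it ended kept much of their change, such as Gclc at day 5 (-1.07 ± 0.35, against -1.19 without the block). Others shrank, such as Cat at day 8 (0.14 ± 0.32, against 0.48). What part slide and stage have in this was not tested. Spots that the scanner software marks as non-uniform in brightness were left out as a further alternative. Only 46 of the 73 member results called in a pairwise comparison then had a value. A member absent from the counts that follow may therefore have had no value. Gclm, Gpx1, Gpx3, Gpx8, Gsta4, Gstm2, Prdx4, Srxn1 and Txnrd1 had none in any comparison. With the array percentile taken from all spots, leaving the non-uniform spots out gave 5 higher and 3 lower members at day 2, 3 and 9 at day 5, and 2 and 6 at day 8. With the percentile taken from the spots kept it gave 9 higher and 2 lower at day 2, 9 and 4 at day 5, and 5 and 3 at day 8. That last setting moved the median of all probes to 0.74, 0.81 and 0.52 at days 2, 5 and 8, from 0.07, -0.02 and -0.11. Of all calls, 96.6%, 88.9% and 79.5% were then higher, from 60.0%, 49.9% and 46.3%. With the slide block these shares were 62.4%, 54.6% and 56.0%, and with the percentile from all spots 68.4%, 53.7% and 48.4%.

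**Figure D1:**
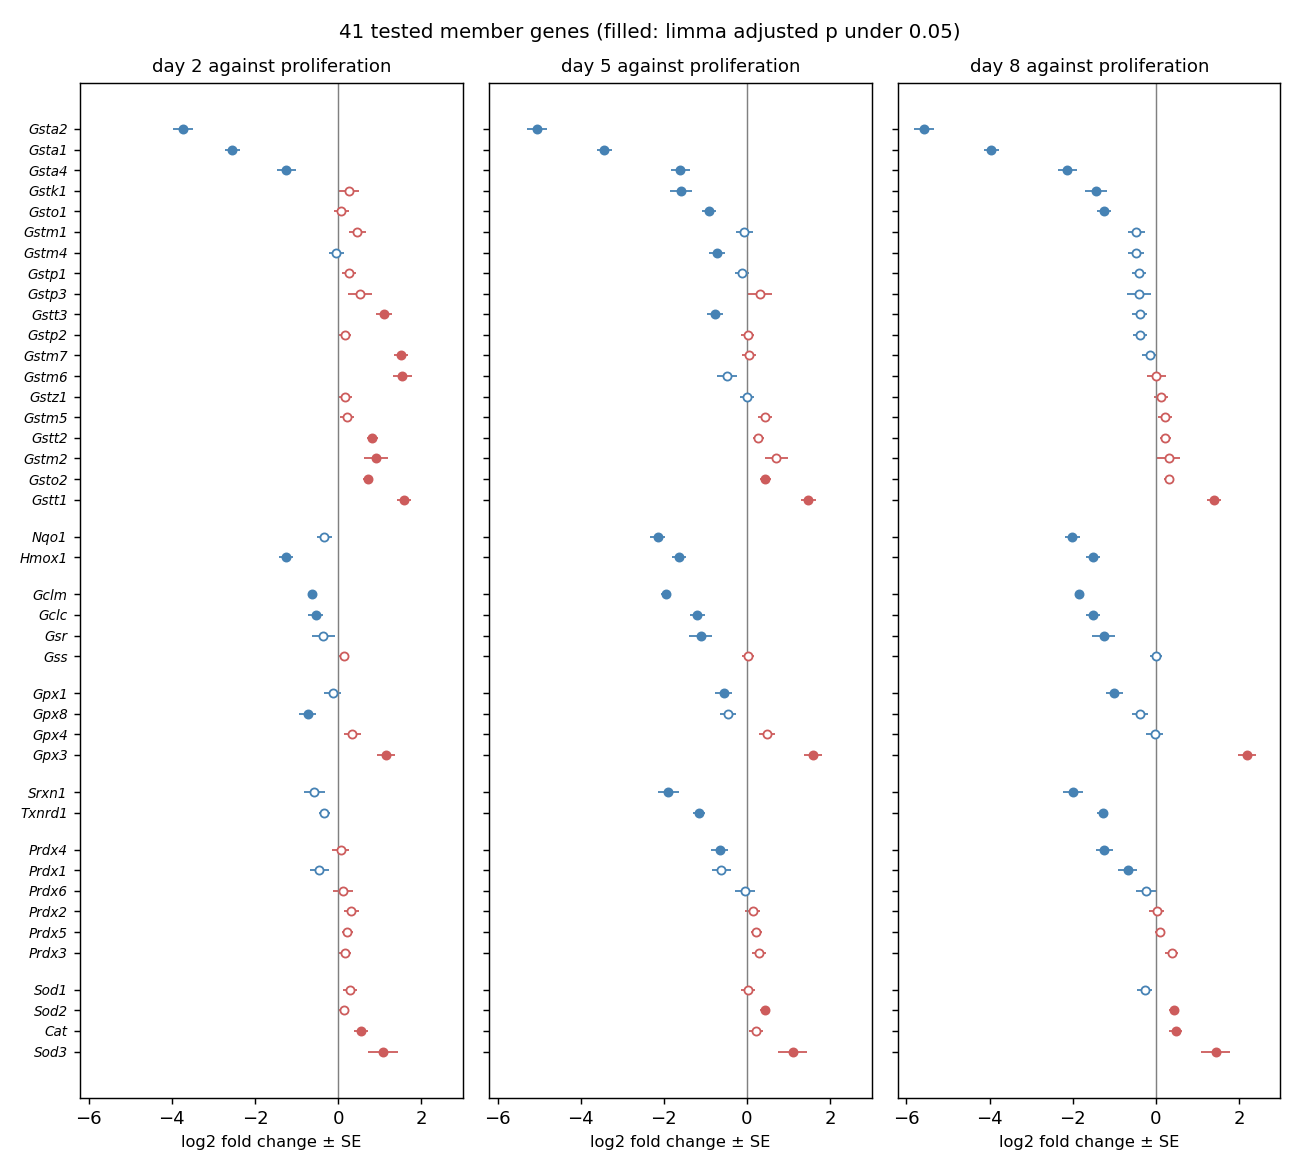
Log2 fold change of each of the 41 tested member genes against proliferation at day 2, day 5 and day 8, with bars of 1 standard error (n = 3 arrays a stage); filled points passed limma's adjusted p of 0.05, red lies above 0 and blue below. Gsta2 and Gsta1 lie farthest to the left at every stage, the theta and mu members Gstt3, Gstm7 and Gstm6 are to the right at day 2 and lower at day 5, and Gstt1 and Gpx3 stay to the right throughout.

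Gsta2 and Gsta1 had the largest falls of the 41 tested members. Gsta1, Gsta2 and Gsta4, which act on lipid peroxidation products such as 4-hydroxynonenal and on other electrophiles, were the 3 tested members of the class. All 3 were lower at day 2, day 5 and day 8, where 12.2%, 25.4% and 30.8% of all genes were lower. The signal of Gsta2 was 1589, 1293 and 1123 in the proliferating cultures, 154, 80 and 77.9 at day 2, 39.2, 41.7 and 38.5 at day 5 and 30.5, 25.1 and 27.7 at day 8. The stages followed each other downwards with no overlap between any neighbouring pair. The fold change was -3.74 ± 0.24 at day 2, -5.05 ± 0.24 at day 5 and -5.58 ± 0.24 at day 8, which is 47.7-fold lower (limma adjusted p = 2.28e-08). Gsta1 showed the same descent. Its signal was 6487, 7540 and 7559 in the proliferating cultures, 1288, 1046 and 1354 at day 2, 567, 815 and 643 at day 5 and 497, 390 and 511 at day 8, again without overlap between stages. It was 5.87-fold lower at day 2 (-2.55 ± 0.18) and 15.5-fold lower at day 8 (-3.96 ± 0.18, limma adjusted p = 2.62e-08). The fall of both went on from day 2 to day 5, by 0.87 ± 0.18 for Gsta1 and by 1.31 ± 0.24 for Gsta2.

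Gsta4, the alpha transferase most specialised for 4-hydroxynonenal, read 18062, 24475 and 30520 in the proliferating cultures, 12614, 8263 and 9624 at day 2, 8865, 6122 and 9012 at day 5 and 5043, 5212 and 6075 at day 8. All later arrays were below the lowest proliferation array, days 2 and 5 overlapped, and day 8 was lowest. The change was -1.25 ± 0.23 at day 2 and -2.13 ± 0.23 at day 8 (limma adjusted p = 2.17e-05). A second, dimmer probe of Gsta4 moved by -1.48 ± 0.25 at day 2 and by -1.53 ± 0.25 at day 8. Both probes of Gsta3 were below background on every array. With the slide as a block the Gsta2 change was -3.10 at day 2, -4.07 at day 5 and -4.54 at day 8, still called, while Gsta4 lost its calls at day 2 (adjusted p = 0.0768) and day 5 (0.0672).

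The start regions of Gsta1 and Gsta2 are shown because these 2 genes fell together and had the largest falls. The windows run from 250 bases before to 50 bases after the transcript start, 5′ to 3′ on the gene's strand, as given by RefSeq for GRCm38.p6, at chr9:78230419-78230718 on the plus strand and chr9:78347096-78347395 on the minus strand. Capitals mark the 6 runs of at least 12 bases that both windows share in the same order, which cover 117 of 300 bases.
Gsta1: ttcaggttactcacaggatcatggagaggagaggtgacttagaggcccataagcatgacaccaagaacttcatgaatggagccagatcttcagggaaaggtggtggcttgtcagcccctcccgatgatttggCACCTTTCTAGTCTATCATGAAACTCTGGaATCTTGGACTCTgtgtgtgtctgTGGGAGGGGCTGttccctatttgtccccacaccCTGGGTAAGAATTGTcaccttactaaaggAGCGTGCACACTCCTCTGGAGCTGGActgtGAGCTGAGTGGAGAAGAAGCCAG
Gsta2: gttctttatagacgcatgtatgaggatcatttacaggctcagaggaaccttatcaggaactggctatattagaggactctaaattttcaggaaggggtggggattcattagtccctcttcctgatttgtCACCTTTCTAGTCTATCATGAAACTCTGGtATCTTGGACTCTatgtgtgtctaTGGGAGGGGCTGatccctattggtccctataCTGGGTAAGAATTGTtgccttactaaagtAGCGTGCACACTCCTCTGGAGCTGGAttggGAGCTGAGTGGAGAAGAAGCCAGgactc
The longest shared run is 29 bases, and all of the runs lie in the 3′ part of the window. Whether RNA of one gene also binds the probe of the other was not tested.

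Nqo1 reduces quinones by 2 electrons, and Hmox1 opens the heme ring to give biliverdin, carbon monoxide and iron. Nqo1 had a signal of 3958, 6029 and 5627 in the proliferating cultures, 4477, 3325 and 4574 at day 2, 1192, 1098 and 1168 at day 5 and 1341, 1181 and 1291 at day 8. Day 2 overlapped proliferation, and days 5 and 8 lay far below both. It fell 4.45-fold by day 5 (-2.15 ± 0.18, limma adjusted p = 3.37e-06) and stood at -2.01 ± 0.18 at day 8, while day 2 gave -0.33 ± 0.18 (adjusted p = 0.194). Hmox1 was already low at day 2. The arrays read 21580, 26372 and 28908 in the proliferating cultures, 12359, 9747 and 10057 at day 2, 8596, 7543 and 8484 at day 5 and 10312, 7471 and 9227 at day 8. All later arrays were below all proliferation arrays, and day 8 overlapped both day 2 and day 5. The change was -1.25 ± 0.17 at day 2, -1.63 ± 0.17 at day 5 and -1.51 ± 0.17 at day 8 (limma adjusted p = 2.35e-05). Blocking on slide ended the day 8 call of Hmox1 (adjusted p = 0.0568). Without non-uniform spots and with the percentile from the spots kept, Hmox1 was called at neither day 2 (-0.64, adjusted p = 0.107) nor day 8 (-0.59, 0.181). The calls of Nqo1 were lost under no alternative that gave a value.

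**Figure D2:**
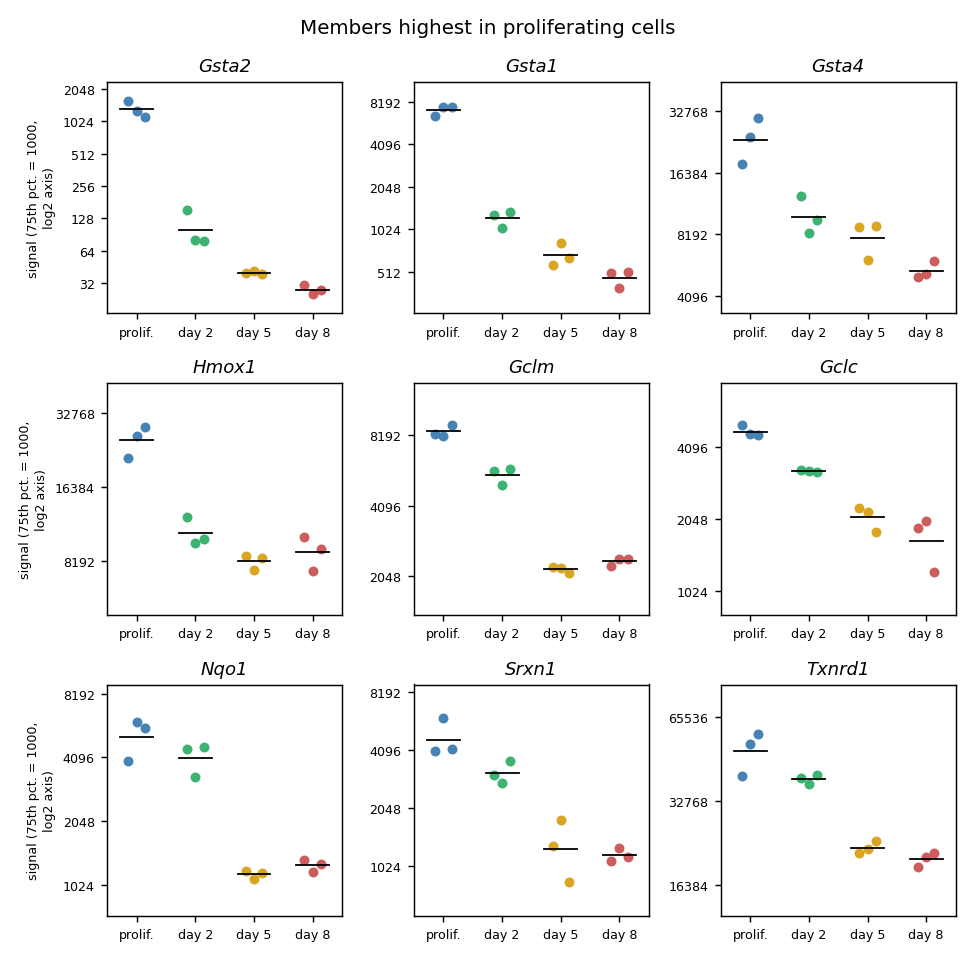
Signal on each of the 12 arrays for 9 members that were highest in proliferating cells, on a log2 axis scaled so that the 75th percentile of an array is 1000; points are single arrays and lines the mean of the log2 values of 3 arrays. Gsta2, Gsta1, Gsta4 and Hmox1 drop between proliferation and day 2, whereas Nqo1, Srxn1 and Txnrd1 drop mainly between day 2 and day 5.

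Among the 4 genes of glutathione synthesis and reduction, 3 were lower at day 5 and day 8 and 1 was not called. Of all genes, 25.4% and 30.8% were lower at these stages. Gclm and Gclc, the modifier and catalytic subunits of the rate-limiting glutamate-cysteine ligase, both fell. Gclm gave 8264, 8104 and 9064 in the proliferating cultures, 5765, 4999 and 5833 at day 2, 2253, 2225 and 2107 at day 5 and 2263, 2421 and 2433 at day 8. Proliferation, day 2 and the later stages were 3 separate levels. It was -0.62 ± 0.11 at day 2, -1.95 ± 0.11 at day 5 (3.86-fold lower, limma adjusted p = 2.52e-07) and -1.84 ± 0.11 at day 8. Gclc, the subunit that carries the active site, was 5066, 4640 and 4596 in the proliferating cultures, 3293, 3284 and 3219 at day 2, 2286, 2195 and 1824 at day 5 and 1880, 2012 and 1226 at day 8. Only days 5 and 8 overlapped each other. The change reached -1.19 ± 0.18 at day 5 and -1.51 ± 0.18 at day 8 (limma adjusted p = 4.27e-05), from -0.54 ± 0.18 at day 2 (adjusted p = 0.0423).

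Gsr, the reductase that regenerates glutathione, read 4182, 5363 and 5195 in the proliferating cultures, 3825, 3588 and 4015 at day 2, 2435, 2345 and 2023 at day 5 and 2025, 3354 and 1265 at day 8. The 6 arrays of days 5 and 8 were below the other 6, with day 8 replicate 2 well above the other two of its stage. The fall was -1.11 ± 0.28 at day 5 (limma adjusted p = 0.00748) and -1.25 ± 0.28 at day 8 (0.00324). Gss, which completes glutathione, ranged from 7126 to 9649 over all arrays and was not called in any comparison. In the slide-blocked fit all calls of Gclc and Gsr were lost: at day 8 the adjusted p was 0.0965 for Gclc and 0.382 for Gsr, at day 5 0.056 and 0.233, at day 2 0.197 for Gclc, and Gclm lost day 2 (0.0628). The day 2 call of Gclc was also lost without any 1 of the proliferation or day 2 arrays or day 5 replicates 1 or 2 (adjusted p = 0.0536 to 0.114), and its change turned to 0.07 (adjusted p = 0.865) without non-uniform spots when the percentile came from the spots kept. That setting also ended the calls of Gclc at day 5 (-0.39, adjusted p = 0.275) and of Gsr at day 8 (-0.31, 0.718), the second lost with the percentile from all spots as well (-0.68, 0.238). Gclm had no value without non-uniform spots, so its calls could not be checked in this way.

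In the thioredoxin system, Srxn1 and Txnrd1 were lower at day 5 and day 8. Srxn1 (sulfiredoxin) restores over-oxidised peroxiredoxins, and Txnrd1 is the cytosolic selenoenzyme that reduces thioredoxin. Srxn1 read 4025, 5976 and 4119 in the proliferating cultures, 3040, 2774 and 3611 at day 2, 1300, 1769 and 843 at day 5 and 1087, 1266 and 1145 at day 8. The day 2 arrays were below the proliferation arrays without passing the test (-0.57 ± 0.25, adjusted p = 0.114), and the later stages were lower again. At day 5 it was 3.71-fold lower (-1.89 ± 0.25, limma adjusted p = 0.000116). The day 8 change was -1.99 ± 0.25, and with the slide as a block it was -1.20 and lost its call (adjusted p = 0.122).

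Txnrd1 was read by 4 probes of different transcripts. The brightest gave 39983, 52091 and 56906 in the proliferating cultures, 39438, 37723 and 40402 at day 2, 21244, 21864 and 23450 at day 5 and 18963, 20597 and 21311 at day 8. Day 2 overlapped proliferation at its lower edge, and days 5 and 8 were below both. It fell by 1.15 ± 0.14 at day 5 and by 1.28 ± 0.14 at day 8 (limma adjusted p = 2.44e-05), and the other 3 probes fell by 1.12 to 1.69 at day 5 and by 1.41 to 1.70 at day 8. One of these 3 also passed at day 2 (-0.53 ± 0.12, limma adjusted p = 0.00898). Txn1, thioredoxin itself, was above background on 1, 2, 2 and 0 arrays of the 4 stages in order and was not tested.

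The core of the antioxidant response element, TGACNNNGC, was searched on both strands of the same 300-base windows. It occurred in 3781 of the 27025 genes searched (14.0%) and in 8 of the 40 members among them (20.0%). The genes searched were those of the RefSeq table with a full 300-base window, with 1 chromosome left out. Of 11 members called lower at day 8 with a window, 4 had a match, as did 0 of 4 called higher and 3 of 19 not called. Gclc, Gsr, Gsta4 and Hmox1, also called lower at day 8, had no window and could not be searched. The same held for Sod3, called higher, and for Gstt2 and Prdx6, not called. The 4 lower members with a match are printed because they carry both the letters and the fall, with the match in capitals. All 4 lie on the plus strand and read the element on the opposite strand, at chr3:122245307-122245606 for Gclm, chr2:152105274-152105573 for Srxn1, chr10:82858956-82859255 for Txnrd1 and chr4:116685349-116685648 for Prdx1, in GRCm38.p6.
Gclm: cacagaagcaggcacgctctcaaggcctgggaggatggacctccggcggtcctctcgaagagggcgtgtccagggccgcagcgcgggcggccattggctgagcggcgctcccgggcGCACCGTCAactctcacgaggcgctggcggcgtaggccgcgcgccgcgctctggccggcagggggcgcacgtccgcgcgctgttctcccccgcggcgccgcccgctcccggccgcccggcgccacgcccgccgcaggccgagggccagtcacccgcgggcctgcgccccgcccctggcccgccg
Srxn1: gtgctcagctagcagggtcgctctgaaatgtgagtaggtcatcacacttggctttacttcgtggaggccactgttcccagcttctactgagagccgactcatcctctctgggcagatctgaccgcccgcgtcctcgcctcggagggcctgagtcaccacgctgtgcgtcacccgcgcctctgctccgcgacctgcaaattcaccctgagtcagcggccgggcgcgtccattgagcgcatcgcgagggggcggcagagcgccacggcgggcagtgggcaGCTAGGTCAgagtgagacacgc
Txnrd1: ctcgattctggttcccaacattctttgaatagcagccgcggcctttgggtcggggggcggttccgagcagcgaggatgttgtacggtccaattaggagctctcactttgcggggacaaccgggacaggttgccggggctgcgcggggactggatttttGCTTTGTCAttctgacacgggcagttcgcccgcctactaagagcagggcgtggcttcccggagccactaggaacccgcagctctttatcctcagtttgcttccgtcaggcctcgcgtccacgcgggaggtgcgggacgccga
Prdx1: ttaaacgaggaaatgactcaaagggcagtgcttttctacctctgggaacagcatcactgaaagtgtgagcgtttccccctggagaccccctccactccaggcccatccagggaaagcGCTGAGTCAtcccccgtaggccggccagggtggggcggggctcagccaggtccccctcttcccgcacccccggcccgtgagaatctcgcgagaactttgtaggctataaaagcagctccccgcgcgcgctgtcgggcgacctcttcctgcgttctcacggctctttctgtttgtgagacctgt
The match begins 134 bases before the start in Gclm, 92 before in Txnrd1, 133 before in Prdx1 and 28 after it in Srxn1. In Prdx1 it overlaps TGAGTCA, the core recognised by AP-1. The Txnrd1 window is 1 of 3 that the table lists for the gene, and the other two hold no match. A match is a string of letters in a window and not a measured binding site.

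Of 6 peroxiredoxins, which reduce peroxides through a reactive cysteine, 1 changed across the stages in the F test, against 68.0% of all genes. Prdx4, the member of the endoplasmic reticulum, was 10283, 10951 and 16338 in the proliferating cultures, 12958, 12512 and 12987 at day 2, 7551, 7674 and 8097 at day 5 and 4264, 6607 and 4911 at day 8. Day 2 lay within the proliferation range, and days 5 and 8 were below both and did not overlap each other. It was -0.66 ± 0.20 at day 5 (limma adjusted p = 0.0182) and -1.24 ± 0.20 at day 8 (0.000341). Prdx1, an abundant cytosolic member, was called at day 8 alone (-0.67 ± 0.23, adjusted p = 0.0316) and not in the F test (0.083). Prdx2, Prdx3, Prdx5 and Prdx6 were called in no comparison, and their largest change was 0.38 ± 0.16 for the mitochondrial Prdx3 at day 8. In the slide-blocked fit Prdx4 lost day 5 (adjusted p = 0.279) and day 8 (0.114). Prdx1 there moved to -1.52 at day 8 (0.0635) and to -1.33 at day 5 (0.0378), where it was then called lower. Without the block Prdx1 was -0.62 at day 5 (limma adjusted p = 0.0502), and 9 of 23 alternatives called it there. Without proliferation replicate 3 or day 5 replicate 1 the day 5 call of Prdx4 was lost (adjusted p = 0.0638 and 0.0512), as was that of Prdx1 at day 8 without proliferation replicate 2 (0.0995) or 3 (0.06) or day 8 replicate 1 (0.101) or 3 (0.0949); without non-uniform spots, with the percentile from the spots kept, Prdx1 was at 0.03.

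Some mu transferases and the 3 tested theta transferases went the other way at day 2. Mu enzymes act on epoxides and other electrophiles, theta enzymes on small halogenated compounds, and all of the mu genes are neighbours in the reference gene order, as are all of the theta genes. Of 6 tested mu genes 3 were higher at day 2 and none lower, and of 3 tested theta genes all were higher. The 3 mu genes include Gstm6, which entered the test through day 2 alone. Of all genes, 20.5% were higher at day 2 and 12.2% lower. Gstm7 read 103, 171 and 146 in the proliferating cultures, 405, 371 and 399 at day 2, 142, 142 and 139 at day 5 and 113, 132 and 125 at day 8. The day 2 arrays were above all others, and the other stages were close to each other. The rise was 2.86-fold (1.52 ± 0.17, limma adjusted p = 0.000162), and day 5 was -1.48 ± 0.17 against day 2 (7.33e-05). Gstt3 was also highest at day 2, with 1456, 1736 and 2073 in the proliferating cultures, 4542, 3084 and 3709 at day 2, 1026, 857 and 1216 at day 5 and 1283, 1439 and 1257 at day 8. No other array came near the day 2 values, and day 5 lay below proliferation. It rose by 1.10 ± 0.19 at day 2 (limma adjusted p = 0.00198), fell by 1.87 ± 0.19 from day 2 to day 5 and was -0.76 ± 0.19 at day 5 against proliferation.

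Gstm6 was a faint member of the same pattern. The signal was 3.13, 3.26 and 5.5 in the proliferating cultures, 10.5, 12 and 10.9 at day 2, 3.38, 2.95 and 2.06 at day 5 and 3.94, 3.6 and 4.01 at day 8, with 1, 3, 0 and 0 arrays above background. The day 2 arrays stood above all others. The gene entered the test through day 2 alone. With 2 of 3 proliferation arrays below background, the fitted rise of 1.54 ± 0.23 (limma adjusted p = 0.000917) gives no fold; with the proliferation arrays at no less than their detection limits, day 2 was at least 1.18-fold higher. Day 5 was at least 1.98-fold lower than day 2 (7.12e-05), a bound set by the detection limit of the day 5 arrays. Gstt2 rose by 0.82 ± 0.13 at day 2 and fell by 0.55 ± 0.13 from day 2 to day 5. Gstt1, in contrast, stayed up. It gave 368, 280 and 454 in the proliferating cultures, 1144, 1106 and 1002 at day 2, 985, 936 and 1093 at day 5 and 910, 932 and 1006 at day 8. All 9 later arrays were above the 3 proliferation arrays and overlapped each other. The rise was 1.59 ± 0.17 at day 2 (limma adjusted p = 0.000116), 1.48 ± 0.17 at day 5 and 1.40 ± 0.17 at day 8, where blocking on slide ended the call (adjusted p = 0.0582).

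The other mu genes changed less. Gstm2 rose by 0.91 ± 0.28 at day 2 (limma adjusted p = 0.0321) and was not called in the F test (0.0527). Gstm4 was -0.72 ± 0.19 at day 5 (0.00987), and its second probe was -0.72 ± 0.26 there and -1.41 ± 0.26 at day 8. Gstm1 changed in the F test (adjusted p = 0.0184) with no stage pair called, and Gstm5 was not called. Gstm3 was above background on 1 array, day 2 replicate 3, with a signal of 96.3 where no other array passed 6.74, and Gstt4 on none. The rise of Gstm2 lost its call in the slide-blocked fit (adjusted p = 0.181) and without proliferation replicate 1 (0.116) or 2 (0.0642) or any day 2 array (0.0678, 0.0807 and 0.0704). The day 5 fall of Gstm4 became 0.08 (0.856) without non-uniform spots when the percentile came from the spots kept, the day 5 call of Gstt3 was lost in the slide-blocked fit (0.332) and without non-uniform spots (0.585 and 0.0887 with the percentile from the spots kept and from all spots), and that of Gstt3 at day 2 without non-uniform spots (0.0574, percentile from all spots).

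**Figure D3:**
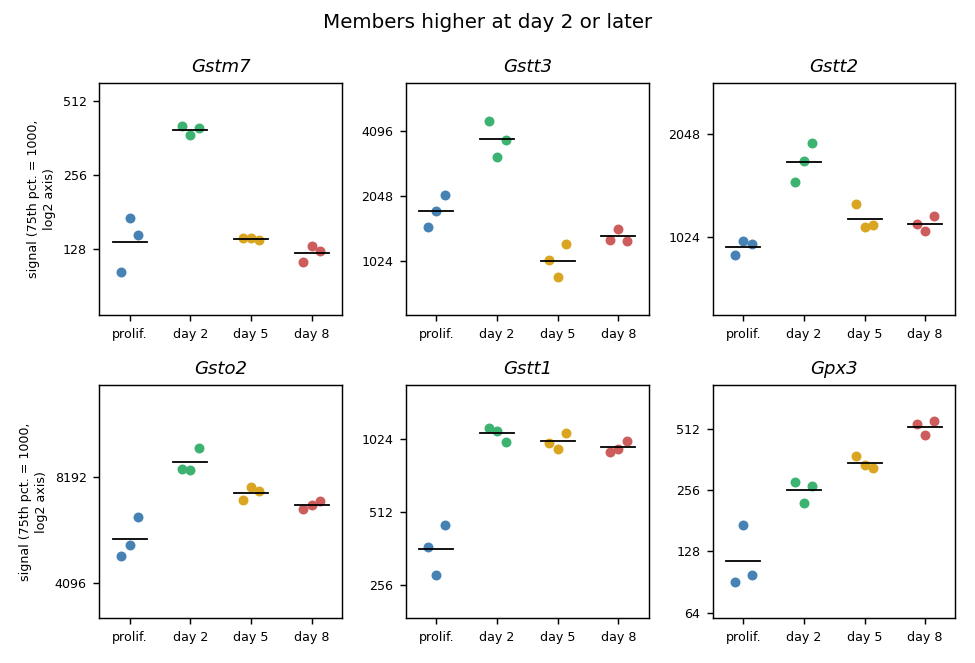
Signal on each of the 12 arrays for 6 members that were higher at day 2 or later, on a log2 axis scaled so that the 75th percentile of an array is 1000; points are single arrays and lines the mean of the log2 values of 3 arrays. Gstm7, Gstt3 and Gstt2 peak at day 2, Gstt1 stays at its day 2 level, and Gpx3 is highest at day 8.

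The 2 omega genes parted. Omega transferases act as thiol transferases and dehydroascorbate reductases. Gsto1 read 143055, 156846 and 180893 in the proliferating cultures, 157068, 167908 and 182329 at day 2, 83340, 79750 and 92088 at day 5 and 65183, 55083 and 85456 at day 8. Day 2 overlapped proliferation, and days 5 and 8 were below both. It fell by 0.91 ± 0.17 at day 5 (limma adjusted p = 0.00114) and by 1.24 ± 0.17 at day 8 (0.000113), a change that became -0.12 at day 5 (adjusted p = 0.792) and 0.13 at day 8 (0.849) without non-uniform spots when the percentile came from the spots kept. Gsto2, its neighbour, was higher instead, by 0.72 ± 0.13 at day 2 (0.00222) and 0.44 ± 0.13 at day 5 (0.0159). Neither call held in the slide-blocked fit (adjusted p = 0.0544 and 0.409), and the day 5 call without proliferation replicate 1 (0.0549) or 2 (0.0547).

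Gstk1, the kappa transferase of mitochondria and peroxisomes, was 80.6, 67 and 89.5 in the proliferating cultures, 100, 81.6 and 98.4 at day 2, 24.6, 19.1 and 37.8 at day 5 and 39.5, 23.1 and 26.6 at day 8. Proliferation and day 2 overlapped, and all arrays of days 5 and 8 were below them. The fall was -1.59 ± 0.26 at day 5 (limma adjusted p = 0.000524) and -1.44 ± 0.26 at day 8 (0.000886), or -2.08 at day 8 with the slide as a block, and from day 2 to day 5 the change was -1.83 ± 0.26. Without non-uniform spots, with the percentile from the spots kept, Gstk1 was -0.79 at day 5 and -0.79 at day 8 and called at neither (adjusted p = 0.0584 and 0.0642). The pi transferases Gstp1, Gstp2 and Gstp3 and the zeta transferase Gstz1, a step of tyrosine breakdown, were called in no stage pair. At day 8 Gstp1, whose F test passed (0.0275), was at -0.41 ± 0.17, Gstp2 at -0.38 ± 0.16, Gstp3 at -0.41 ± 0.29 and Gstz1 at 0.12 ± 0.17. Gstp1 and Gstp2 are close copies, and whether their probes tell them apart was not tested.

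Glutathione peroxidases split by member. Gpx3, the secreted plasma form, was higher than in proliferation at every later stage. It read 90.4, 173 and 98.2 in the proliferating cultures, 281, 222 and 269 at day 2, 377, 340 and 331 at day 5 and 545, 480 and 562 at day 8. No stage overlapped its neighbour, although proliferation replicate 2 was well above the other two of that stage. The rise over proliferation was 1.15 ± 0.22 at day 2, 1.59 ± 0.22 at day 5 and 2.19 ± 0.22 at day 8, 4.57-fold (limma adjusted p = 1.2e-05). The steps from day 2 to day 5 (0.45, limma adjusted p = 0.162) and from day 5 to day 8 (0.60, 0.102) were not called. Gpx1, the main cytosolic peroxidase, read 62816, 83716 and 107665 in the proliferating cultures, 85683, 71204 and 71358 at day 2, 61028, 51390 and 56259 at day 5 and 39829, 35163 and 50457 at day 8. Proliferation and day 2 overlapped, and days 5 and 8 lay below both and apart. It was -0.56 ± 0.20 at day 5 (1.47-fold lower, limma adjusted p = 0.0425) and 2.0-fold lower at day 8 (standard error 0.20 on the log2 scale, limma adjusted p = 0.00182). Gpx8, of the endoplasmic reticulum, was lower at day 2 (-0.73 ± 0.20, adjusted p = 0.0187), and both probes of Gpx4, which reduces lipid peroxides in membranes, were called in no comparison. Gpx2 and Gpx7 were above background on no array.

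In the slide-blocked fit both calls of Gpx1 were lost (adjusted p = 0.647 at day 5 and 0.366 at day 8), as was that of Gpx8 (0.0751), while Gpx3 stayed called. The day 5 call of Gpx1 was lost without any of 8 single arrays: proliferation replicates 2 (0.0934) and 3 (0.154), day 2 replicates 2 (0.0539) and 3 (0.0544), each day 5 array (0.0596, 0.115 and 0.0796) and day 8 replicate 1 (0.0561). That of Gpx8 was lost without proliferation replicate 3 (0.0551) or day 2 replicate 2 (0.059).

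Superoxide dismutases and catalase gave small rises and no fall. Sod2, the mitochondrial manganese enzyme, had signals of 1129, 993 and 1189 in the proliferating cultures, 1228, 1264 and 1139 at day 2, 1414, 1459 and 1617 at day 5 and 1533, 1541 and 1410 at day 8. Days 5 and 8 lay above proliferation, and day 2 overlapped it. The rise was 0.44 ± 0.12 at day 5 (limma adjusted p = 0.0108) and 0.44 ± 0.12 at day 8 (0.00943). Cat, the peroxisomal catalase, was higher at day 2 (0.55 ± 0.16, limma adjusted p = 0.0236) and day 8 (0.48 ± 0.16, 0.0249). Sod3, the extracellular form, was near background with 7.28, 3.72 and 2.7 in the proliferating cultures, 10.4, 11.2 and 5.99 at day 2, 10.6, 8.15 and 8.36 at day 5 and 9.74, 10 and 14.9 at day 8, and 0, 1, 2 and 3 arrays of the stages in order were above it. The gene entered the test through day 8 alone, where its mean was highest, and it is counted among the members higher at day 2, day 5 and day 8. Its fit was called at all 3 later stages, with at least a 1.27-fold rise at day 8 (limma adjusted p = 0.0056) and no bound above 1 at day 2. Sod1, the cytosolic copper-zinc enzyme, ranged from 60472 to 117133 and was not called.

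In the slide-blocked fit Sod2 was 0.42 ± 0.24 at day 5 and 0.30 ± 0.30 at day 8. Cat was 0.64 ± 0.19 at day 2 and 0.14 ± 0.32 at day 8. Sod3 was 1.31 ± 0.53, 1.49 ± 0.70 and 1.93 ± 0.88 at days 2, 5 and 8. The slide as a block ended all calls of this group: Sod2 at day 5 (adjusted p = 0.249) and day 8 (0.548), Cat at day 2 (0.0541) and day 8 (0.812), and Sod3 at day 2, day 5 and day 8 (0.124, 0.164 and 0.175). Single arrays did so too: proliferation replicate 2 for Sod2 at day 5 (0.0506) and for Cat at day 2 (0.0829) and day 8 (0.0879), day 2 replicates 1 and 3 for Cat at day 2 (0.0694 and 0.0654), and day 8 replicates 2 and 3 for Cat at day 8 (0.0686 and 0.0612). Sod3 lost day 5 without proliferation replicate 2 (0.0732) or 3 (0.0947) or day 5 replicate 1 (0.0795), and day 2 without any of 8 arrays other than proliferation replicate 1, day 2 replicate 3, day 5 replicate 3 and day 8 replicate 3 (0.0509 to 0.128). Without non-uniform spots Sod2 lost day 5 and Cat day 8, with the percentile from the spots kept (adjusted p = 0.0981 and 0.125) and from all spots (0.306 and 0.241).

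Set against day 2 rather than proliferation, 15 of the 41 members were lower at day 5 and none was higher, where 18.0% of all genes were lower and 13.7% higher (31.6% in all). The unadjusted p was under 0.05 for 1 member that was higher and 20 that were lower, and for 41.5% of all genes in either direction. Of the 15, 9 were glutathione transferases, among them Gstm6, which entered the test through day 2 alone. The falls held members with different courses: Gstm6, Gstm7, Gstt2 and Gstt3 had been called higher at day 2, while Gstk1, Gsto1, Nqo1, Prdx4, Srxn1 and Txnrd1 were called lower than proliferation at day 5 but not at day 2. Slide 2 held 2 arrays of each of these stages, and the difference within it was -1.77 for Nqo1, -2.05 for Gstk1, -1.85 for Gstt3 and -1.27 for Gclm. Within slide 1 the difference between the single day 2 array and the mean of the 3 proliferation arrays was -3.10 for Gsta2, -2.48 for Gsta1 and 1.56 for Gstm7. These arrays are also part of the pooled values.

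Calls between day 2 and day 5 were lost in the slide-blocked fit for Gclc (adjusted p = 0.134) and Prdx4 (0.0765). They were lost for Gclc without day 2 replicate 1 (0.0516) or 2 (0.0511) or day 5 replicate 3 (0.0737), for Prdx4 without day 2 replicate 3 (0.0503) or day 5 replicate 1 (0.0538), and for Gstm4 without day 2 replicate 2 (0.079) or 3 (0.0679) or day 5 replicate 1 (0.0651) or 3 (0.0622). Without non-uniform spots, with the percentile from the spots kept, the calls of Gclc, Gsta1, Gstm4, Gsto1 and Gstt2 between these days were lost (adjusted p = 0.371, 0.446, 0.435, 0.16 and 0.558).

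Other alternatives ended calls of members too. With normexp background correction these were Cat and Sod3 at day 2, Gclc at day 2, Gpx1, Gstm4 and Sod3 at day 5, Cat and Prdx1 at day 8, and Gstm6 and Prdx4 between day 2 and day 5 (adjusted p = 0.0512 to 0.382). With no filter on dim probes they were Cat, Gclc, Gstm2 and Sod3 at day 2, Gpx1 and Sod3 at day 5, Cat and Prdx1 at day 8, and Gclc and Gstm4 between day 2 and day 5 (0.0526 to 0.0986). Fitting only the arrays of the stages compared ended those of Sod3 at day 2, of Gpx1, Gsto2 and Sod3 at day 5, and of Gstm4 between day 2 and day 5 (0.0501 to 0.0953). The call of Gstm4 between day 2 and day 5 was also lost with the median over all probes of the gene (0.105), and that of Sod3 at day 2 when the array percentile came only from probes detected throughout (0.0574).

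From day 5 to day 8, none of the 41 members was called by limma in either direction, where 6.22% of all genes were higher and 7.22% lower (13.4% in all). The unadjusted p was under 0.05 for 1 that was higher, Gpx3 (0.60 ± 0.22, adjusted p = 0.102), and for 6 that were lower, beside 30% of all genes in either direction. The lowest adjusted p was 0.0733 for Gsta1 (-0.53 ± 0.18). The other 5 were Gpx4, Gsta4, Gstp2, Gstp3 and Prdx4. A single member passed under some alternatives, among them Gpx1 with normexp background correction, Gpx3 when only the arrays of days 5 and 8 were fitted, and Prdx4 without proliferation replicate 3 or day 8 replicate 2.

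The genes around these enzymes were followed in 5 further lists. Among 11 regulators of Nrf2, 4 were higher and 3 lower at day 5 (all genes, 24.4% and 25.4%), and 4 higher and 2 lower at day 8 (all genes, 25.8% and 30.8%). Nfe2l2, which encodes Nrf2, was lower at day 2 (-0.89 ± 0.26, limma adjusted p = 0.023), day 5 (-1.02 ± 0.26, 0.00696) and day 8 (-0.88 ± 0.26, 0.0134), with a mean signal of 8769 ± 2054 (SD, n = 3) in proliferation and 4245 ± 466 at day 5. Keap1, which sends Nrf2 to the proteasome, was higher at day 2 (0.48 ± 0.13) and day 8 (0.46 ± 0.13), and Cul3, the ubiquitin ligase scaffold that works with it, was lower at day 2 (-1.03 ± 0.29) and day 5 (-1.04 ± 0.29). Bach2, a repressor that competes for the same element, rose by 0.88 ± 0.19 at day 2, 1.39 ± 0.19 at day 5 and 2.12 ± 0.19 at day 8 (limma adjusted p = 4.27e-06). Nfe2l1, the relative of Nrf2, was up 1.08 ± 0.13 at day 5, and the small Maf protein Maff was down -1.11 ± 0.15 at day 8.

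Blocking on slide cost Nfe2l2 all 3 calls (adjusted p = 0.303, 0.406 and 0.559), Keap1 both (0.138 and 0.391), Cul3 both (0.246 and 0.482), Maff at day 8 (0.136), and Bach2 at day 2 (0.145) and day 5 (0.0657). Nfe2l2 also lost day 2 without proliferation replicate 1 (0.0841) or 2 (0.0704) or day 2 replicate 2 (0.0786) or 3 (0.0676), and day 8 without proliferation replicate 1 (0.0512) or day 8 replicate 2 (0.0554). Keap1 lost day 2 without proliferation replicate 1 (0.0571) or day 2 replicate 2 (0.0655), and Cul3 day 5 without proliferation replicate 1 (0.0544) and day 2 without proliferation replicate 1 (0.0852) or 2 (0.0651) or day 2 replicate 2 (0.0796) or 3 (0.0534).

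Other Nrf2 target enzymes gave 6 of 15 lower and none higher at day 8, where 30.8% of all genes were lower and 25.8% higher (median -0.62, against -0.11 over all genes). Ftl1, the ferritin light chain that stores iron released by heme oxygenase, was lower by 1.77 ± 0.22, Akr1b8, an aldo-keto reductase, by 1.22 ± 0.30, Ugdh, which makes UDP-glucuronate, by 0.78 ± 0.12 and Blvra, biliverdin reductase, by 0.75 ± 0.16. At day 5 3 of the list were lower and 2 higher, where 25.4% and 24.4% of all genes were. Of 8 measured genes that supply NADPH, 4 were lower and 1 higher at day 8, beside the same 30.8% and 25.8% of all genes. G6pdx and Pgd, the dehydrogenases of the pentose phosphate pathway, were -0.79 ± 0.16 and -1.18 ± 0.28, and the isocitrate dehydrogenases moved apart, with 0.86 ± 0.19 for the cytosolic Idh1 and -0.47 ± 0.15 for the mitochondrial Idh2. In the slide-blocked fit the day 8 call was lost for Ftl1 (adjusted p = 0.0537), Akr1b8 (0.201), Blvra (0.462), G6pdx (0.0592), Pgd (0.697), Idh1 (0.233) and Idh2 (0.682). Idh2 was also lost without proliferation replicate 2 (0.0649) or 3 (0.0855) or day 8 replicate 2 (0.0859) or 3 (0.0564).

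Among 22 measured genes of other glutathione handling, 2 were higher and 8 lower at day 8, against 25.8% and 30.8% of all genes. Oplah, the oxoprolinase that returns glutamate from glutathione breakdown, rose by 1.76 ± 0.19 at day 2 and 2.28 ± 0.19 at day 8 (limma adjusted p = 3.09e-06). Abcc4, an exporter of conjugates, fell by 2.01 ± 0.15 at day 5 (1.21e-06) and 1.82 ± 0.15 at day 8. Mgst2, a microsomal transferase, was -1.97 ± 0.26 at day 5 (0.000113). Glrx, glutaredoxin, was -2.70 ± 0.48 at day 8 (0.000738), a call that blocking on slide ended (0.379). In the list of other thioredoxin and repair enzymes, 4 of 16 were higher and 5 lower at day 8, shares close to the 25.8% and 30.8% of all genes. Sesn3, a sestrin, rose by 1.30 ± 0.13 at day 8 (limma adjusted p = 1.04e-05). The methionine sulfoxide reductase Msrb2 was up 0.63 ± 0.13 at day 2 and down -0.53 ± 0.13 at day 8, Msra was down -0.80 ± 0.15 at day 8, and Msrb3 was down -1.10 ± 0.25 at day 2 only. The slide block ended the calls of Msrb2 (0.643) and Msra (0.103) at day 8 and of Msrb3 at day 2 (0.0654). Without non-uniform spots, with the percentile from the spots kept, the day 8 calls of G6pdx, Maff, Blvra, Ugdh, Msrb2 and Msra were lost (adjusted p = 0.744, 0.266, 0.771, 0.503, 0.859 and 0.755). Normexp ended that of Akr1b8 at day 8 (0.0778), and the absence of a filter on dim probes those of Idh2 at day 8 (0.0565) and of Nfe2l2, Keap1 and Cul3 at day 2 (0.0562, 0.0542 and 0.0548).

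**Figure D4:**
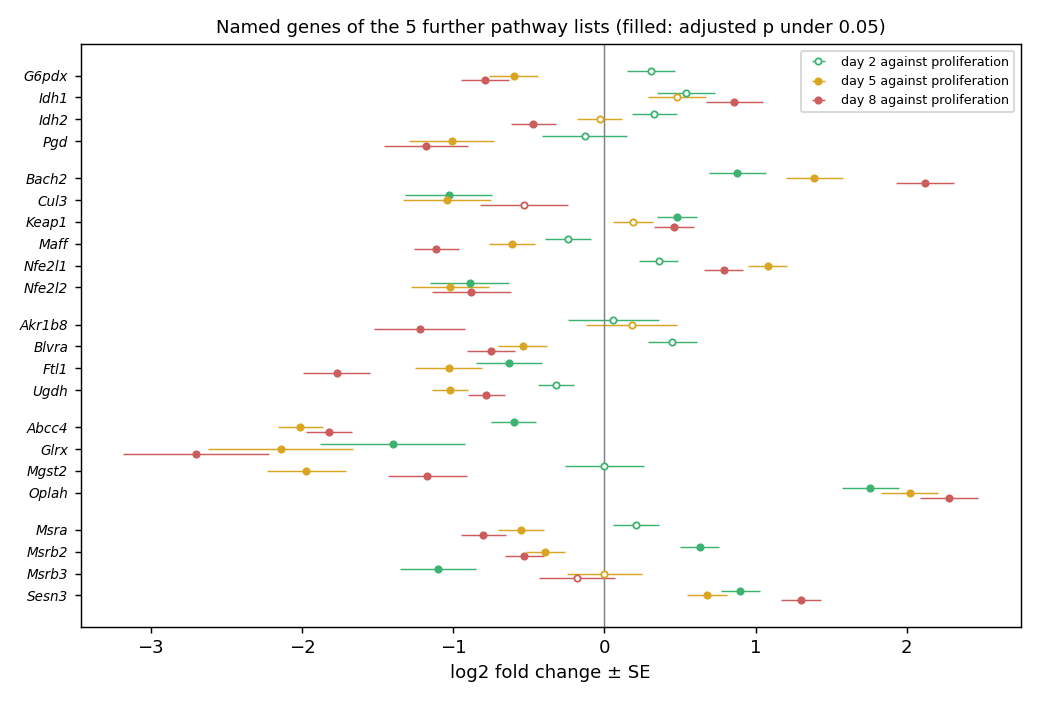
Log2 fold change against proliferation at day 2, day 5 and day 8, with bars of 1 standard error (n = 3 arrays a stage), for the named genes of the 5 further lists; filled points passed limma's adjusted p of 0.05. Oplah, Bach2 and Sesn3 lie to the right of 0 at all 3 stages, Nfe2l2 and Ftl1 lie to the left at all 3, and Glrx reaches -2.70 at day 8.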

How the data were processed

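RNA of 12 C2C12 cultures was hybridised to one-colour Agilent arrays, 1 µg of total RNA per sample per the labels' protocols. Per the submitters' processing notes the scanner output was made by Agilent Feature Extraction (version 10.5.1.1), and the deposited values used are the processed green intensity, background-treated by that software per the file headers, with no scaling between arrays recorded there. Log2 of the deposited intensity was taken, repeat spots were averaged without population outliers, and each array's 75th percentile was subtracted. Non-uniform spots were kept. Of 39448 spots per array, 37831 spots of 37246 probes were used.

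The 22960 probes that all 3 arrays of some stage read well above background were fitted with limma 3.58.1 (R 4.3.3, with the package data.table, version 1.17.8) as 4 stage means over 12 arrays, with Benjamini-Hochberg adjustment over all of them and a threshold of 0.05. The brightest tested probe stood for a gene. Alternatives were quantile normalization, another percentile set, normexp with an offset of 50, 2 other filters on dim probes, non-uniform spots left out in 2 ways (one was chosen after seeing the data), slide and replicate blocks, fewer arrays in the fit, the median over probes and each array left out. Mean signals were not in the files, so normexp used the median signals. The fit was tested on simulated data.

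Members and lists were chosen with earlier results of these data known. Genes are described with every array's value where the F test called them and their stage means spanned at least 1 on the log2 scale; genes of other lists are named where they were among the 4 largest spans called, with Nfe2l2 and Keap1 always. Symbols came from a RefSeq table of GRCm38.p6, used for names and gene order; the array header names mm9. Start windows came from RefSeq for GRCm38.p6, where 40 of 47 members matched. Python 3.11.15, pandas 2.3.3 and matplotlib 3.10.9 were used for tables and plots.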

Additional observations from a re-analysis of the deposited data

How the results depend on the processing

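Of 73 member results called in a pairwise comparison, 31 kept their call under every alternative that gave a value, 42 lost it under at least 1 and 15 lost it when 1 array was left out. Quantile normalization and the replicate block ended none of the 73, the slide block 30, and normexp and the absence of a filter on dim probes 10 each. With the slide as a block 6 members were higher and 3 lower at day 2, 2 higher and 11 lower at day 5, 1 higher and 8 lower at day 8, and 17 changed in the F test. Without non-uniform spots and with the percentile from the spots kept, 9 were higher and 2 lower at day 2, 9 higher and 4 lower at day 5, 5 higher and 3 lower at day 8, 6 lower from day 2 to day 5, and 12 changed; with the percentile from all spots, 5 were higher and 3 lower at day 2, 3 higher and 9 lower at day 5, 2 higher and 6 lower at day 8, and 13 changed. Both settings gave a value for 46 of the 73. The first also moved the median of all probes to 0.74, 0.81 and 0.52 at days 2, 5 and 8 (0.07, -0.02 and -0.11 otherwise). It moved the share of higher calls to 96.6%, 88.9% and 79.5% (from 60.0%, 49.9% and 46.3%). It turned Gclc at day 2 (0.07), Gstm4 at day 5 (0.08), Gsto1 (0.13) and Prdx1 (0.03) at day 8, G6pdx (0.12), Maff (0.19), Blvra (0.16) and Msrb2 (0.17) at day 5 and Abcc4 at day 2 (0.01). From day 2 to day 5 it moved the share of higher calls from 47.7% to 60.5% and from day 5 to day 8 from 46.7% to 21.9%; normexp moved the share at day 2 to 72.8% and at day 8 to 60.7%, with medians of 0.20 and 0.15. The cause was not tested. From day 5 to day 8, 1 member was lower with normexp and 1 with the replicate block, and 1 higher when only the arrays compared were fitted, where 3 were higher at day 5. The replicate block, run because titles share numbers, changed no other count. Of 18 correlations between same-numbered arrays 5 passed 0.1, but differently numbered arrays were not set beside them. Whether the numbers pair the samples is therefore not known. Leaving out each array gave 7 to 10 higher and 5 to 8 lower members at day 2, 3 to 6 and 14 to 17 at day 5, 4 to 7 and 14 to 20 at day 8, 0 to 1 and 13 to 16 from day 2 to day 5, 0 to 1 each way from day 5 to day 8, and 24 to 29 in the F test. Probes near background, such as Gstm6 and Sod3, limit what can be read from this set, as does the number of arrays.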
